A study of Homo sapiens with 20 samples.

Results

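RUNX1 binding was examined around 9 transcription factors of monocyte and macrophage differentiation: KLF4, KLF2, KLF6, EGR1, EGR2, MAF, ZEB2, NR4A1 and VDR. Members were all peaks of the deposited count table that lay within 50 kb of the span that RefSeq gives a gene on GRCh38, which yielded 29 of the 26642 peaks, and each of the 9 genes had at least 1. The measurement was ChIP-seq against RUNX1 in THP-1, a human acute monocytic leukemia cell line. The cells carried a doxycycline-inducible cassette with an shRNA that either targets PU.1 (knockdown) or is a scramble sequence (control), and doxycycline was given in both cases. Of the 20 samples, 12 were RUNX1 libraries, made in 2 rounds that the labels call batches. Control libraries numbered 3 in batch 1 and 3 in batch 2, knockdown libraries 2 and 4. Another 8 samples made with an IgG antibody did not enter the analysis.

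RUNX1 is a DNA-binding subunit of core binding factor and shares many regulatory elements with PU.1, an ETS factor that drives monocyte and macrophage identity. The genes examined act along that route. KLF and EGR proteins are zinc finger factors that promote or modulate monocyte differentiation, MAF is a leucine zipper factor of mature macrophages, ZEB2 is a zinc finger repressor that myeloid cells need, and NR4A1 and VDR are nuclear receptors. The assay reads RUNX1 occupancy and not expression, so neither the levels of these genes nor the PU.1 knockdown or the labelled cell type could be checked here.

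Between 630247 and 1199004 reads per control library and between 938745 and 1719840 reads per knockdown library fell into peaks. Counts were therefore divided by a size factor per library, and "normalised count" below means that quotient. This scaling centres the bulk of peaks near no change, so that a change shared by most peaks would not be seen. The part of the unequal depth in the results was not tested. The labels do not say whether libraries of a group came from separate cultures, and p-values thus measure only the spread between these libraries.

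A RUNX1 peak covered the listed transcription start of 3 of the genes, namely EGR1, KLF6 and ZEB2. The 250 bases before these starts lay wholly inside those peaks and are shown because they are the promoter sequence under the measured signal. They are from RefSeq (GRCh38.p14), written 5′ to 3′ on the strand of the gene. Capitals mark GGAA, the core letters of ETS factors such as PU.1 (TTCC where it lies on the other strand), and in EGR1 also the matches to the CArG box, the element of serum response factor.
EGR1, chr5:138465229-138465478, plus strand: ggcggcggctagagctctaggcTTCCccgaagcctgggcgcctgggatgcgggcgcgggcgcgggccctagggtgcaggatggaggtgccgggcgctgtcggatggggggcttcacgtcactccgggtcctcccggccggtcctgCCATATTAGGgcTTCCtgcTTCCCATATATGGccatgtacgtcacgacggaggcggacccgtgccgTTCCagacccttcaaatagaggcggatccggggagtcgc
KLF6, chr10:3785210-3785459, minus strand: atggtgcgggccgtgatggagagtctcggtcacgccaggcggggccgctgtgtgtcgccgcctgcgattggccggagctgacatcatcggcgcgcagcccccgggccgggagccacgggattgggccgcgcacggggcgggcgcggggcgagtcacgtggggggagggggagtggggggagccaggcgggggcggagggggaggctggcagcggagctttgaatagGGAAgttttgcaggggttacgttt
ZEB2, chr2:144520120-144520369, minus strand: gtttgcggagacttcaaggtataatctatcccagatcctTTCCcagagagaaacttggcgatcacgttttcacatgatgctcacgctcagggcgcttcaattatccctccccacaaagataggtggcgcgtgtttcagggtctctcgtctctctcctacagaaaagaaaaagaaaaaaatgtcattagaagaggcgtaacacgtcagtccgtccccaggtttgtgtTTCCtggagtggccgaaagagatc

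The promoter table held 11 such windows for 8 of the 9 genes (several genes have more than 1 listed start). On either strand, 0 of the 11 windows held the RUNX core letters TGTGGT or TGCGGT, which 16.31% of all 35116 windows of the table held. GAGGAA, letters found within PU.1 sites that include GGAA, occurred in 2 windows (23.57% of all windows), at KLF4 and at 1 of the EGR2 starts. GGAA alone was present in 92.74% of all windows. The CArG box, searched after the data had been seen, occurred in 1.159% of all windows and in 2 of these 11. EGR1 held 2 matches, which began 105 and 83 bases before the start and had TTCC close by or across their edges, as the sequence above shows. EGR2, the other window, held 1. These matches describe letters only, and the sequences of the distal peaks were not analysed here.

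PU.1 knockdown was accompanied by loss of RUNX1 signal at several peaks around MAF and KLF2, genes singled out from these same calls. Most peaks at the other genes did not pass the test, and neither did most of all peaks (15457 of 26642). Of the 29 peaks, 10 were called (DESeq2 with batch as covariate, Benjamini-Hochberg adjusted p under 0.05 over all peaks and fold change over 1.1), against 42.0% of all peaks. Of these, 2 were gained (21.3% of all peaks) and 8 were lost (20.7% of all peaks). The calls stood at 4 genes, KLF2, EGR2, MAF and NR4A1, while KLF4, KLF6, EGR1, ZEB2 and VDR had none. The median log2 fold change was -0.21 over the 29 peaks and -0.20 without the 4 MAF peaks, against -0.025 over all peaks. Member peaks resembled the others in size, with a median width of 911 bp against 889 bp and a median normalised count of 32.2 against 31.2. Single values thus carried considerable counting error, and the largest change that did not pass the test was a log2 fold change of 0.52.

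**Figure D1:**
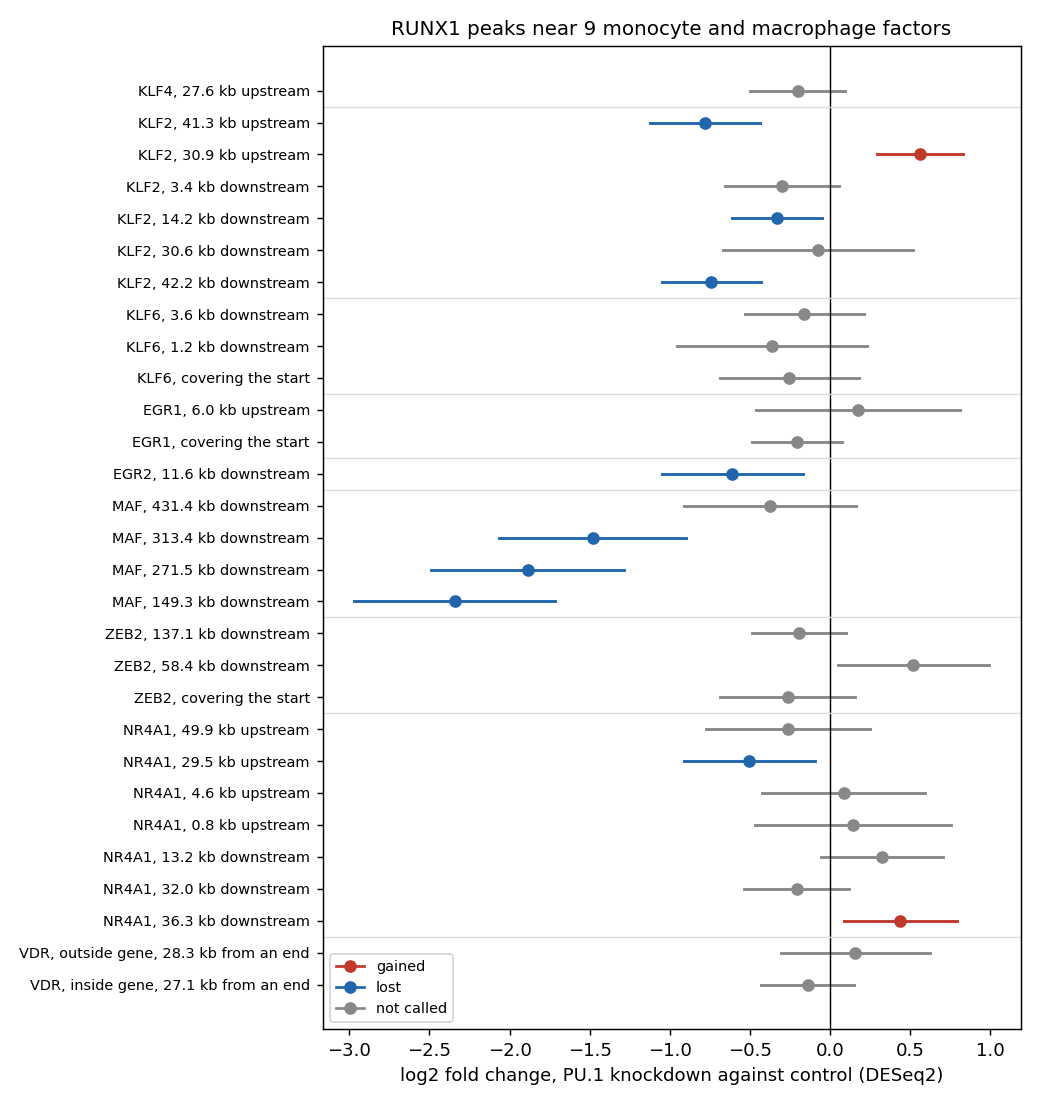
Log2 fold change of RUNX1 signal (PU.1 knockdown against control, x axis) at the 29 peaks within 50 kb of the 9 genes, one row per peak, named by gene and by the distance of the peak centre from the nearest listed start. Peaks over a start are labelled so, and VDR, which has no listed start, is given by distance from an end of the gene. Points are DESeq2 estimates, lines their 95% confidence intervals, and the colour gives the call. The 3 MAF peaks between 149.3 and 313.4 kb from the start lie farthest to the left, at -1.48 to -2.34.

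The largest losses were at MAF (gene ID 4094, chr16:79202622-79600737, minus strand), which encodes c-MAF, a factor that restrains proliferation of mature macrophages. Its RefSeq span is long, 398 kb, and the peaks lay deep within it, 149 to 313 kb downstream of the listed start. No peak covered that start. In the peak nearest to it (chr16:79451131-79451759), the normalised counts of batch 1 were 27.3, 23.3 and 23.0 in control and 9.13 and 5.27 in knockdown libraries. Those of batch 2 were 27.8, 25.8 and 37.9 in control and 4.75, 3.96, 3.19 and 7.46 in knockdown libraries. All knockdown libraries were thus below all control libraries. The signal fell from 27.5 ± 5.47 to 5.63 ± 2.25 (SD, n = 6 each), a 5.07-fold reduction (log2 fold change -2.34 ± 0.32, SE, DESeq2 adjusted p = 9.35e-12).

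Another 2 peaks within MAF behaved alike. The lost peak farthest from the start (chr16:79286958-79287628), the highest of the locus by mean count, fell from 24.7 ± 6.91 to 9.70 ± 4.82 (SD, n = 6 each), with a log2 fold change of -1.48 ± 0.30 (SE, DESeq2 adjusted p = 5.22e-06). Its control libraries read 24.7, 26.1 and 15.0 in batch 1 and 29.5, 34.0 and 19.0 in batch 2, and its knockdown libraries 8.22 and 5.93 in batch 1 and 19.0, 10.6, 7.01 and 7.46 in batch 2. Here the groups met in batch 2, since knockdown replicate 3 and control replicate 6 were both at 19.0. Without that knockdown replicate the peak was still called, as it was in all 12 fits that each left out a library.

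The peak between them (chr16:79328809-79329591), named after its values were seen, ranged from 20.01 to 31.6 in control and from 3.30 to 9.13 in knockdown libraries, with no overlap. It fell from 24.8 ± 4.53 to 6.39 ± 2.20 (SD, n = 6 each), a log2 fold change of -1.89 ± 0.31 (SE, DESeq2 adjusted p = 1.44e-08). The 3 lost peaks were 41.2 and 121.5 kb apart, so that they are separate regions. Their summed normalised count was 58.8 to 83.2 per control library and 17.8 to 28.5 per knockdown library. Because the peaks were summed for being lost, these sums add nothing to the calls. The 3 lost peaks were also the only member peaks that changed more than 2-fold. Of all 26642 peaks, 4545 were called with such a change in either direction, and 2185 (8.2%) with such a loss. The raw counts behind these values were low, 13 to 36 reads in control and 4 to 16 in knockdown libraries. A filter for at least 10 reads in every library therefore removed all 3 from the test.

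The remaining MAF peak (chr16:79169081-79169675) lay 32.9 kb beyond the end of MAF, within the neighbouring gene WWOX. It was at 19.4 ± 6.11 in control and 14.9 ± 2.86 in knockdown libraries (SD, n = 6 each), a log2 fold change of -0.38 with a 95% confidence interval from -0.91 to 0.16 (DESeq2 adjusted p = 0.274). This interval does not reach the point estimates of the 3 lost peaks. It does overlap the 95% confidence interval of the lost peak farthest from the start, -2.06 to -0.90. A difference between the peaks was not tested.

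KLF2 (gene ID 10365, chr19:16324826-16328685, plus strand), a factor that restrains inflammatory activation of monocytes, had 6 peaks. Of these, 3 were lost (20.7% of all peaks) and 1 was gained (21.3% of all peaks). The calls went in opposite directions at adjacent regions upstream of the gene. The outer peak (chr19:16282721-16284321, 41.3 kb upstream, nearest to AP1M1, outside the rule for named peaks) was at 49.4, 47.5 and 53.0 in control and 31.1 and 30.3 in knockdown libraries of batch 1. In batch 2 it was at 57.2, 49.2 and 51.6 in control and 28.5, 32.4, 32.5 and 22.4 in knockdown libraries. The groups did not overlap, and the signal fell from 51.3 ± 3.49 to 29.5 ± 3.80 (SD, n = 6 each; DESeq2 adjusted p = 5.35e-05, log2 fold change -0.78 ± 0.17, SE).

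The inner peak (chr19:16293178-16294658, 30.9 kb upstream) began 8.86 kb further on and was gained. It was at 57.2, 72.6 and 68.0 in control and 88.6 and 92.8 in knockdown libraries of batch 1, and at 48.6, 77.4 and 50.6 in control and 83.1, 101.1, 93.1 and 93.2 in knockdown libraries of batch 2. Each knockdown library exceeded each control library. The signal rose from 62.4 ± 11.99 to 92.0 ± 5.93 (SD, n = 6 each; DESeq2 adjusted p = 2.43e-04, log2 fold change 0.56 ± 0.14, SE). This was the largest gain among the member peaks that passed the test.

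Downstream of KLF2, a peak within EPS15L1 (chr19:16366376-16367754, 42.2 kb from the KLF2 start) was lost. Its control libraries read 71.5, 80.0 and 54.1 in batch 1 and 55.5, 90.3 and 83.2 in batch 2, and its knockdown libraries 42.0 and 34.9 in batch 1 and 60.6, 49.5, 42.7 and 45.7 in batch 2. The groups were apart in batch 1, while in batch 2 control replicate 4 was below knockdown replicate 3. The signal fell from 72.4 ± 14.9 to 45.9 ± 8.66 (SD, n = 6 each; DESeq2 adjusted p = 2.05e-05, log2 fold change -0.74 ± 0.16, SE). These 3 KLF2 calls held in all 12 fits that each left out a library.

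The other KLF2 loss was marginal. The peak 14.2 kb downstream of the start (chr19:16338595-16339492), singled out after its values were seen, was at 75.6 ± 7.10 in control and 59.4 ± 9.80 in knockdown libraries (SD, n = 6 each; DESeq2 adjusted p = 0.0479, log2 fold change -0.33 ± 0.14, SE). The call held in 3 of the 12 fits that left out a library. It was lost without control replicates 3, 4, 5 or 6 or knockdown replicates 1, 2, 4, 5 or 6, with DESeq2 adjusted p-values from 0.0698 to 0.138. It was also lost with TMM size factors (0.0550), with total in-peak counts as size factors (0.0625) and after centring on the peaks of its 10 Mb window (0.0839). The peak over KLF2 itself (chr19:16327490-16328942) did not pass the test, with 46.6 ± 10.8 and 37.0 ± 3.40 (SD, n = 6 each; DESeq2 adjusted p = 0.174, log2 fold change -0.30, 95% confidence interval -0.65 to 0.05). The weakest KLF2 peak, 30.6 kb downstream, was at 14.5 ± 3.70 and 13.4 ± 3.83 (SD, n = 6 each).

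**Figure D2:**
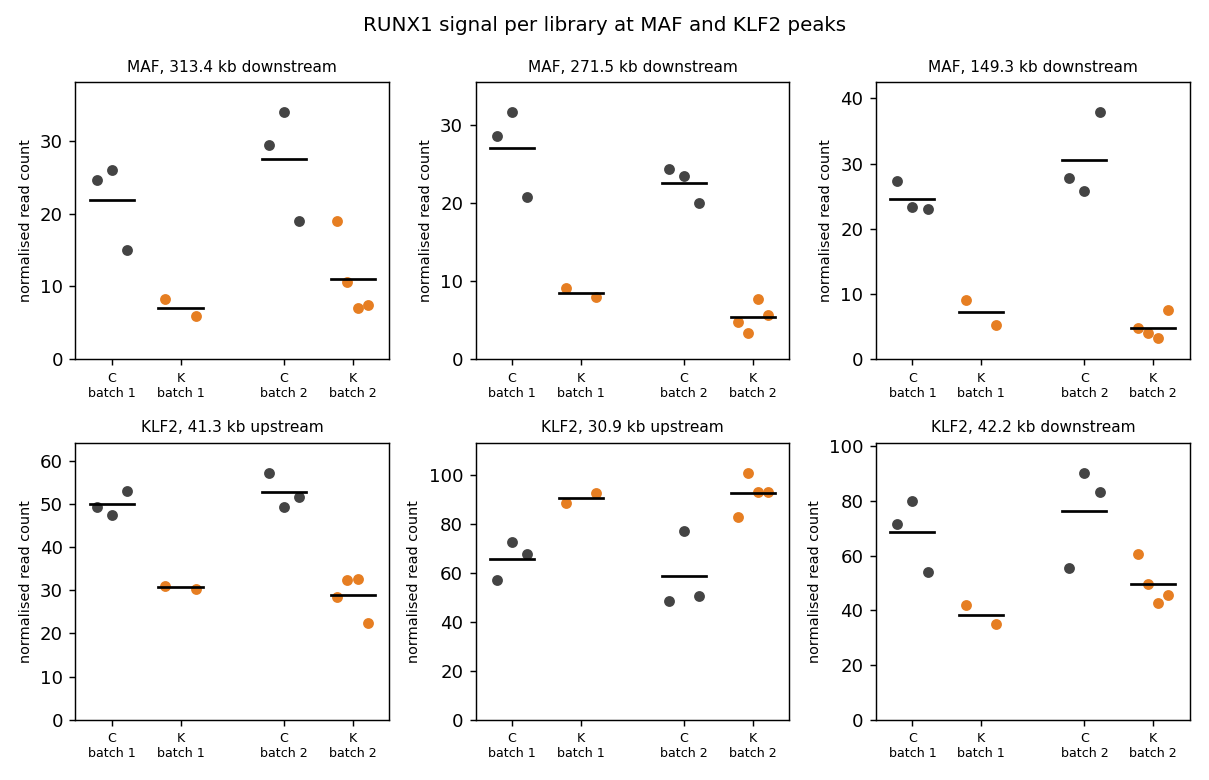
Normalised RUNX1 read count (y axis, from 0) per library at 3 MAF and 3 KLF2 peaks, split by batch into control (C, grey) and knockdown (K, orange) libraries. Points are libraries and bars the group means. Group means are lower in knockdown in every panel except the KLF2 peak 30.9 kb upstream, where knockdown libraries lie between 83.1 and 101.1 against 48.6 to 77.4 in control.

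EGR1 and EGR2 are immediate-early factors that favour the macrophage over the granulocyte fate. The only EGR2 peak (gene ID 1959; chr10:62804129-62805462) lay 6.53 kb beyond the end of the gene, in ADO. Control libraries were at 70.2, 34.4 and 43.8 in batch 1 and at 39.9, 31.7 and 21.1 in batch 2. Knockdown libraries were at 21.0 and 32.3 in batch 1 and at 28.5, 23.1, 19.1 and 21.4 in batch 2. The groups overlapped in batch 2, where the lowest control library was within the knockdown range. The peak fell from 40.2 ± 16.6 to 24.2 ± 5.07 (SD, n = 6 each; DESeq2 adjusted p = 0.0182, log2 fold change -0.61 ± 0.22, SE). The call was lost without control replicate 1 (0.0959), control replicate 4 (0.0569) or knockdown replicate 1 (DESeq2 adjusted p = 0.113). Neighbouring peaks of the 10 Mb window had a median log2 fold change of 0.18, and centred on it the change was -0.79 (DESeq2 adjusted p = 0.0017).

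At EGR1 (gene ID 1958), the peak over the start (chr5:138463440-138466259) was the highest member peak by mean count and spans the promoter shown above. It was at 119.6, 80.0 and 86.4 in control and 105.0 and 90.9 in knockdown libraries of batch 1, and at 79.8, 97.3 and 77.9 in control and 70.1, 57.5, 73.3 and 54.0 in knockdown libraries of batch 2. The groups overlapped in batch 1 and were apart in batch 2. The means were 90.2 ± 16.1 and 75.1 ± 19.6 (SD, n = 6 each; DESeq2 adjusted p = 0.244, log2 fold change -0.21, 95% confidence interval -0.49 to 0.07). The log2 fold change was 0.06 in batch 1 alone and -0.42 in batch 2 alone, and neither passed the test. A small peak 6.0 kb upstream was at 11.5 ± 4.45 and 13.7 ± 4.21 (SD, n = 6 each; DESeq2 adjusted p = 0.703).

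NR4A1 (gene ID 3164, chr12:52022832-52059503, plus strand), an orphan nuclear receptor on which non-classical monocytes depend, had the most peaks, 7. Of these, 1 was gained (21.3% of all peaks) and 1 was lost (20.7% of all peaks). Both calls were outside the gene and close to the threshold. The lost peak (chr12:51992914-51993766, in ACVR1B, 29.5 kb upstream) was at 31.2, 34.4 and 27.6 in control and 19.2 and 20.4 in knockdown libraries of batch 1, and at 36.4, 35.2 and 29.5 in control and 30.9, 21.8, 21.7 and 28.9 in knockdown libraries of batch 2. Its means were 32.4 ± 3.48 and 23.8 ± 4.84 (SD, n = 6 each; DESeq2 adjusted p = 0.0382, log2 fold change -0.51 ± 0.21, SE). The groups overlapped in batch 2 through knockdown replicate 3 alone.

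The gained peak (chr12:52073413-52074519, in ATG101, 36.3 kb downstream) was at 40.3, 27.0 and 33.4 in control and 43.8 and 55.3 in knockdown libraries of batch 1, and at 36.4, 44.5 and 30.5 in control and 45.1, 48.2, 49.1 and 41.0 in knockdown libraries of batch 2. In batch 2 knockdown replicate 6 was below control replicate 5. The means were 35.4 ± 6.43 and 47.1 ± 4.98 (SD, n = 6 each; DESeq2 adjusted p = 0.0377, log2 fold change 0.44 ± 0.18, SE). Either call held in only 4 of the 12 fits that left out a library. The loss was not called without control replicates 1, 2, 4 or 5 or knockdown replicates 1, 2, 4 or 5 (DESeq2 adjusted p from 0.0584 to 0.0981). The gain was not called without control replicates 2, 3, 4 or 6 or knockdown replicates 1, 2, 4 or 5 (DESeq2 adjusted p from 0.0517 to 0.18).

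The other 5 NR4A1 peaks had log2 fold changes between -0.26 and 0.32. The one nearest a listed start (chr12:52036683-52037168, 0.547 kb from it) was at 14.6 ± 5.91 and 15.4 ± 4.39 (SD, n = 6 each; DESeq2 adjusted p = 0.749, log2 fold change 0.14, 95% confidence interval -0.47 to 0.75). The highest (chr12:52068779-52070573, 2.84 kb from the gained peak) differed between batches in its libraries. In batch 1 it was at 62.4, 66.1 and 72.6 in control and 38.4 and 47.4 in knockdown libraries, while in batch 2 control libraries (35.8 to 57.2) enclosed the knockdown libraries (46.3 to 55.0). The log2 fold change was -0.62 in batch 1 and 0.13 in batch 2, and the interaction had an unadjusted p of 0.0244 (DESeq2). It did not pass after adjustment over all peaks.

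KLF4 and KLF6 had no called peak. KLF4 (gene ID 9314), which promotes monocyte differentiation, had a single peak (chr9:107516813-107517908, 27.6 kb upstream). It was at 52.0, 71.7 and 62.2 in control and 71.2 and 48.7 in knockdown libraries of batch 1, and at 62.4, 69.2 and 74.8 in control and 49.9, 61.4, 63.1 and 49.4 in knockdown libraries of batch 2. The groups overlapped in both batches, with means of 65.4 ± 8.25 and 57.3 ± 9.34 (SD, n = 6 each; DESeq2 adjusted p = 0.290, log2 fold change -0.20, 95% confidence interval -0.50 to 0.10).

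KLF6 (gene ID 1316), which supports inflammatory macrophage gene expression, had 3 peaks that overlapped its span, spaced by 1.68 and 0.321 kb. The one over the start (chr10:3784601-3786563) separated the libraries by batch rather than by genotype, with 47.2 to 87.1 in batch 1 and 14.0 to 42.1 in batch 2. Its means were 48.5 ± 21.7 in control and 36.1 ± 17.4 in knockdown libraries (SD, n = 6 each; DESeq2 adjusted p = 0.365, log2 fold change -0.26, 95% confidence interval -0.69 to 0.18). The peaks 1.2 and 3.6 kb downstream had log2 fold changes of -0.36 and -0.16 (DESeq2 adjusted p = 0.349 and 0.524).

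ZEB2 (gene ID 9839, chr2:144384081-144520119, minus strand) had 3 peaks. The peak over its start (chr2:144519789-144521265) was at 33.0 ± 10.0 in control and 25.6 ± 6.12 in knockdown libraries (SD, n = 6 each; DESeq2 adjusted p = 0.330, log2 fold change -0.27, 95% confidence interval -0.69 to 0.16). The peak at the far end of the gene (chr2:144382596-144383536) was at 64.6 ± 9.94 and 58.5 ± 8.32 (SD, n = 6 each; DESeq2 adjusted p = 0.308, log2 fold change -0.19, 95% confidence interval -0.49 to 0.10). Between them, a peak inside ZEB2 (chr2:144461294-144462073), singled out after its values were seen, was close to the threshold. Its control libraries were at 14.3, 18.6 and 9.22 in batch 1 and 27.8, 18.8 and 24.2 in batch 2, and its knockdown libraries at 31.1 and 19.8 in batch 1 and 34.4, 27.1, 29.3 and 27.0 in batch 2. Knockdown libraries were above control in batch 1, and control replicate 4 was inside their range in batch 2. The log2 fold change was 0.52 with a 95% confidence interval from 0.05 to 0.99 (DESeq2 adjusted p = 0.0679), and edgeR called it gained (adjusted p = 0.0362). edgeR called 47.1% of all peaks, and 11 of the 29. It was the only member peak that edgeR called beyond the 10 of DESeq2.

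VDR (gene ID 7421), the vitamin D receptor, had a peak inside the gene (chr12:47868248-47869057) and one 27.9 kb outside it in HDAC7. The inner peak had the highest signal per length of all member peaks, 76.0 normalised counts per kb, next to 75.2 at the marginal KLF2 peak and 19.8 at the ZEB2 start, the lowest. It was at 46.8, 67.0 and 72.6 in control and 65.8 and 56.0 in knockdown libraries of batch 1, and at 53.8, 69.2 and 74.8 in control and 61.8, 62.1, 52.9 and 55.9 in knockdown libraries of batch 2. Control and knockdown libraries overlapped in both batches (64.0 ± 11.2 and 59.1 ± 4.87, SD, n = 6 each; DESeq2 adjusted p = 0.470, log2 fold change -0.14, 95% confidence interval -0.43 to 0.15). The HDAC7 peak was at 24.0 ± 9.70 and 25.2 ± 3.95 (SD, n = 6 each; DESeq2 adjusted p = 0.630).

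**Figure D3:**
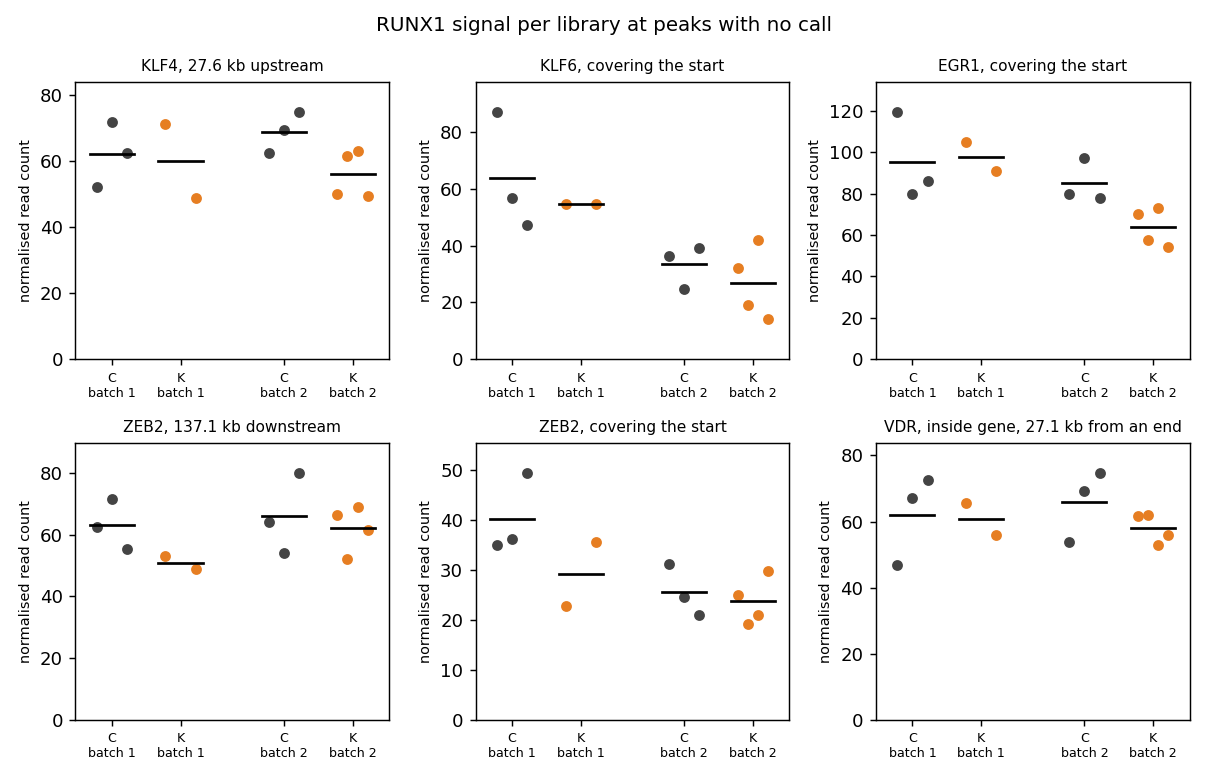
Normalised RUNX1 read count (y axis, from 0) per library at 6 peaks without a call, split by batch into control (C, grey) and knockdown (K, orange) libraries, with bars at the group means. Control and knockdown libraries overlap in at least 1 batch at each peak, and KLF6 libraries of batch 1 (47.2 to 87.1) lie above those of batch 2 (14.0 to 42.1).

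By position, 0 of the 3 peaks over a start were called, where 21.3% of the 4726 peaks over a listed start of any protein-coding gene were. Of the 14 peaks overlapping the span of their gene, the 3 over a start included, 3 were called, all at MAF. Of the 16490 peaks overlapping any protein-coding gene, 38.5% were called. Of the 15 peaks beside their gene, 7 were called (46.67%, against 42.0% of all peaks). Assignment was by distance alone, and for 10 of the 29 peaks another gene was nearer. Among these 10 were 1 gained peak (21.3% of all peaks) and 4 lost peaks (20.7% of all peaks).

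The 2 batches share no library and were tested separately. In batch 1, 3 member peaks were lost (6.61% of all peaks) and 0 gained (5.38% of all peaks), the losses being the 3 MAF peaks. In batch 2, 5 were lost (13.1% of all peaks), the same 3 and the KLF2 peaks 41.3 kb upstream and 42.2 kb downstream, and 1 was gained (12.8% of all peaks), the KLF2 peak 30.9 kb upstream. At each of the 3 MAF peaks, both knockdown libraries of batch 1 were below the 3 control libraries of that batch. With any of its 5 libraries left out, 0 losses were called in batch 1, in a design of at most 2 libraries against 2 or 3 against 1. In batch 2, the gain was not called without control replicate 4 or 6, and 3 losses were called without control replicate 5. All 10 calls of the joint fit had the same sign in both batches. That fit used both batches, so this agreement is no independent check. Over the 29 peaks the sign was the same at 21, and no share over all peaks is given for this. The interaction of genotype and batch passed the adjusted threshold (DESeq2) at 0 member peaks (0.0% of all peaks), and at an unadjusted p under 0.05 at 1 of 29 (2.51% of all peaks). In both batches, every knockdown library was above every control library at 1 member peak (14.4% of all peaks), the gained KLF2 peak. Every knockdown library was below at 4 (13.9% of all peaks), of which 2 were at MAF and 2 at KLF2.

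**Figure D4:**
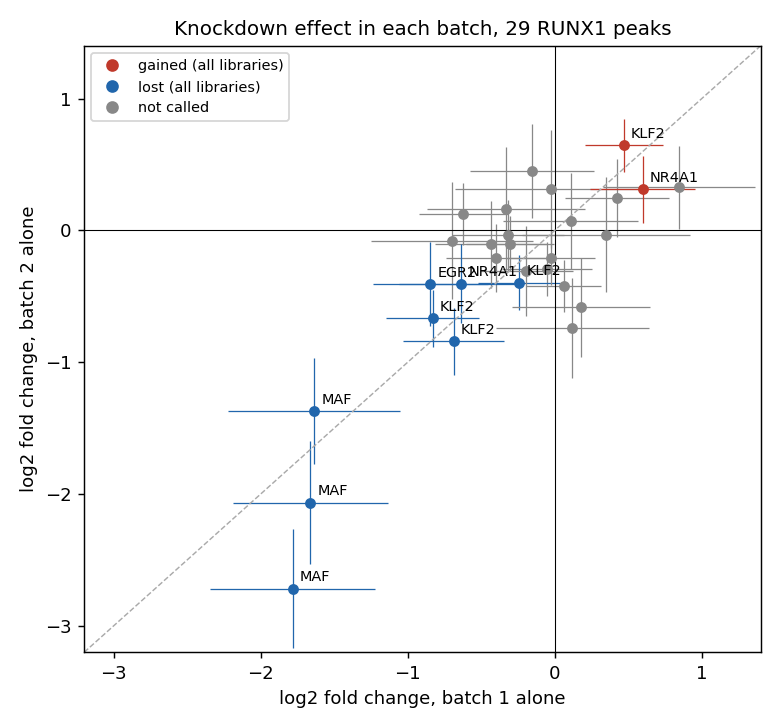
Log2 fold change of RUNX1 signal in batch 1 alone (x axis) against batch 2 alone (y axis) for the 29 peaks, with DESeq2 standard errors as lines. Colour gives the call over all libraries, called peaks carry their gene, and the dashed line marks equal change. The 3 MAF peaks lie in the lower left, at -1.64 to -1.78 in batch 1 and -1.37 to -2.72 in batch 2.

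Genes related to the 9 factors were read from lists chosen with earlier results of these data known. Of 22 paralogues and partner proteins, 20 had a peak within 50 kb. Their 76 peaks held 15 gained and 16 lost calls, with a median log2 fold change of -0.07. This was 40.79% called, against 42.0% of all peaks (21.3% gained and 20.7% lost). MAFF, a small MAF protein, had 3 peaks and all 3 were gained, with log2 fold changes from 0.53 to 1.41. The one with the smallest adjusted p among those whose mean count reached 20, nearest to TMEM184B, rose from 40.3 ± 7.82 to 74.6 ± 6.61 (SD, n = 6 each; DESeq2 adjusted p = 6.49e-07, log2 fold change 0.86 ± 0.16, SE). EGR4 had a peak, nearest to FBXO41, that fell from 53.3 ± 16.0 to 22.5 ± 4.14 (SD, n = 6 each; DESeq2 adjusted p = 9.82e-08, log2 fold change -1.18 ± 0.20, SE). KLF16 had 10 peaks, 6 of them lost and 1 gained, with a gain of 1.01 ± 0.13 (adjusted p = 4.53e-14) and a loss of -0.92 ± 0.18 (adjusted p = 3.94e-06) on the log2 scale (SE, DESeq2). That gain lay 20.8 kb from KLF16, nearest to ADAT3 and SCAMP4, and that loss 46.5 kb from it, nearest to SCAMP4. NR4A2 and NR4A3, the receptors closest to NR4A1, had 3 and 1 peaks and 0 calls by DESeq2.

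Of 14 other regulators of monocytes, 11 had a peak within 50 kb. Their 58 peaks held 7 gained and 13 lost calls (median log2 fold change -0.05). This was 34.48% called, against 42.0% of all peaks (21.3% gained and 20.7% lost). CEBPA, which encodes a factor of granulocyte and monocyte commitment, had 7 peaks with 2 gained and 1 lost, the lost one 29.3 kb from the gene (log2 fold change -1.29 ± 0.22, SE, DESeq2 adjusted p = 3.63e-08). FOS, an AP-1 subunit, had 7 peaks with 1 gained and 2 lost, the gained one 28.4 kb from the gene (log2 fold change 1.001 ± 0.17, SE, DESeq2 adjusted p = 4.63e-08).

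Of 17 genes that monocytes or macrophages express, such as surface receptors and granule proteins, 16 had a peak within 50 kb. Their 47 peaks held 7 gained and 14 lost calls (median log2 fold change -0.11). This was 44.68% called, against 42.0% of all peaks (21.3% gained and 20.7% lost). The alarmin S100A8 had a peak that fell from 35.0 ± 6.29 to 8.40 ± 2.28 (SD, n = 6 each; DESeq2 adjusted p = 1.12e-12, log2 fold change -2.04 ± 0.27, SE). A peak 36.7 kb from CX3CR1, the fractalkine receptor, and nearest to DSTNP4, fell from 42.3 ± 4.05 to 10.9 ± 4.38 (SD, n = 6 each; DESeq2 adjusted p = 2.82e-14, log2 fold change -1.95 ± 0.24, SE). Of 2 peaks at the scavenger receptor MARCO, 1 was lost (log2 fold change -1.33) and 1 rose from 56.3 ± 13.5 to 122.2 ± 10.997 (SD, n = 6 each; DESeq2 adjusted p = 5.15e-14, log2 fold change 1.13 ± 0.14, SE).

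As a share of all in-peak reads, the 29 peaks held 0.0977% to 0.108% in control libraries (mean 0.103 ± 0.0036, SD, n = 6) and 0.0813% to 0.0942% in knockdown libraries (mean 0.0892 ± 0.0048, SD, n = 6). The groups did not overlap in this share, which is given as a description only. It includes the lost MAF and KLF2 peaks, and the same share was not computed for other sets of peaks.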

How the data were processed

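RUNX1 ChIP-seq was analysed in 12 libraries of THP-1 cells grouped by the labels into control and knockdown (n = 6 each) in 2 batches. As the methods of the study state, the authors used Bowtie2 for alignment, dropped duplicates, ran MACS2 for each condition and batch, kept peaks reproducible between batches, merged them and used featureCounts. Deposited were raw counts per peak and library, without normalization, beside the peak width in bp (other information). Peaks were called on the libraries compared. The methods name a mouse build, but 20.84% of 25276 peaks on chromosomes with listed starts covered a GRCh38 start, against 1.468% to 1.962% after shifting by 100 kb or 1 Mb, and GRCh38 was used.

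Differential binding was computed with DESeq2 1.42.0 in R 4.3.3 over all 26642 peaks (batch as covariate, Benjamini-Hochberg). edgeR 4.0.16 (quasi-likelihood), TMM and total size factors, no batch term, a replicate block, a count filter, no independent filtering, each library left out, stricter thresholds, windows of 10 and 100 kb and centring on 10 Mb windows (at least 20 peaks) were alternatives. Leaving out libraries within batch and the CArG search were added after seeing the data. The median control peak received 18 to 34 reads, the median knockdown peak 26 to 48. On simulated counts of this comparison with 26642 peaks, of which 200 were shifted by 1 on the log2 scale, 136 of the shifted peaks were found by DESeq2 (1 false call) and 142 by edgeR (6 false calls). The simulated means held no batch effect, and far fewer peaks were shifted than the 42.0% called in the data. Its recovery and false calls therefore need not carry over to the data. Libraries of a group differed by more than counting noise (chi-square per degree of freedom 1.29 to 2.2), so none was treated as a duplicate. Peaks named were, per gene, the one nearest a start (for VDR an end of the gene), the highest by mean, and the gained and lost call with the smallest adjusted p (mean at least 20). For the lists they were up to 2 gained and 2 lost calls with the smallest adjusted p, and those at SPI1 and CSF1R are not repeated here. Another such peak is not reported here. The members and lists were chosen with earlier results of these data known.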

Additional observations from a re-analysis of the deposited data

Results flagged for a closer look

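Of 58 groups of 6 libraries searched (29 peaks in 2 groups), 4 held a library set apart from the other 5 by more than Dixon's 95% limit, where chance gives about 1 in 20, or 2.9. At the marginal KLF2 peak 14.2 kb downstream of the start, knockdown replicate 6 had a normalised count of 41.0, the other 5 being between 59.5 and 70.1. At the lost MAF peak farthest from the start, knockdown replicate 3 was at 19.0 against 5.93 to 10.6. At the MAF peak nearest the start, control replicate 6 was at 37.9 against 23.0 to 27.8. At the NR4A1 peak 49.9 kb upstream, knockdown replicate 3 was at 4.75 (4 reads) against 17.7 to 23.7. Both MAF peaks were still called without those libraries.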

How the results depend on the processing

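Of the 2 gained member peaks, 1 remained in number with the replicate number as a block, at an adjusted p under 0.01 and in batch 2 alone, and 0 in batch 1 alone, at a fold change over 2 and within 10 kb, against 4 within 100 kb. Of the 8 lost ones, the number was 3 with at least 10 counts in every library, in batch 1 alone and at a fold change over 2, and 5 in batch 2 alone, at an adjusted p under 0.01 and within 10 kb. Equal numbers did not always mean the same peaks. The 3 losses in batch 1 alone and at a fold change over 2 were the MAF peaks, which the count filter removed. Leaving out 1 library gave 1 to 2 gained and 5 to 8 lost peaks. Within batch 1 it gave 0 lost (3 with all libraries), and within batch 2 it gave 0 to 1 gained and 3 to 5 lost. Calls over all peaks numbered 11185, but 5877 with the count filter and 4545 at a fold change over 2, and 9495 with the replicate block. Under the block, neither NR4A1 call held (DESeq2 adjusted p = 0.139 for the loss and 0.105 for the gain), nor did the marginal KLF2 loss 14.2 kb downstream (0.0905). Within 10 kb, gained and lost calls were 1 and 6 of 22 peaks for monocyte and macrophage genes and 1 and 4 of 27 for other regulators. For paralogues and partners they were 8 and 10 of 44 (21.3% and 20.7% of all peaks).

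The sign changed at peaks that were not called. The EGR1 peak over the start had a log2 fold change of 0.061 in batch 1 alone, the NR4A1 peak nearest a start -0.033 in batch 2 alone and -0.057 to 0.27 when 1 library was left out (lowest without control replicate 2), and the highest NR4A1 peak 0.13 in batch 2 alone. The causes were not tested. The lost MAF peaks nearest to and farthest from the start kept their call and direction under the 21 alternatives run on them (leaving out a library within a batch not among these). The count filter removed them.

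Replicate numbers did not pair the libraries: deviations of same-numbered libraries correlated between -0.083 and 0.236, 1 of 6 pairs was best with its own number, and number 3 spans the batches. The median standard error was 0.21 on the log2 scale over member peaks and over all peaks.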
